A study of Homo sapiens with 6 samples.

Results

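The cytosolic heat shock proteins described here are 10 named genes, HSPA1A, HSPA1B, HSPA6, HSPA8, HSPB1, HSPH1, HSP90AA1, DNAJB1, BAG3 and HSPE1, each taken from the deposited table by its exact symbol. All 10 were found among the 14987 genes listed. The RNA came from HCT116, a long-established line of human colorectal cancer cells, and 6 mRNA libraries were sequenced. After 6 h of glucose deprivation there was 1 library of cells with the construct shYAP1, 1 with the construct shYAP3 and 1 of NC cells, whose genotype is given as wild type, and the same 3 lines gave 1 library each in control medium. The shYAP cells carry a knockdown of YAP, a coactivator of transcription, and the study asked how YAP bears on the genes that glucose deprivation induces. Each library comes from 1 line in 1 medium and no replicate cultures are named, so p-values measure only the spread between these libraries.

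Heat shock proteins are chaperones that bind unfolded stretches of other proteins. HSP70 proteins work in cycles that J-domain proteins start and that exchange factors such as the BAG and HSP110 families end, while HSP90 acts later on clients such as kinases and receptors. The stress-inducible genes among them are classical targets of the transcription factor HSF1, which binds inverted repeats of the letters GAA, called heat shock elements. The label of the set holds for 9 of the 10: HSPE1 encodes HSP10, the partner of HSP60 in the mitochondrial matrix, and so is no cytosolic protein.

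The promoters of the genes show how closely they share this element, and the stretches that hold it are printed for the 7 genes in which it was found. RefSeq windows of the build GRCh38.p14, from 250 bases before to 50 after an annotated start, were matched by symbol for 10 of 10 genes in 13 windows, since HSP90AA1 has 2 and DNAJB1 has 3. Each was searched on both strands for the 2-unit elements GAANNTTC and TTCNNGAA and for the 3-unit heat shock element, in which a GAA unit is added to GAANNTTC after a further NN, or the same on the other strand. A 3-unit match thus holds both 2-unit matches. The sequences run 5′ to 3′ along the strand of the gene and stop before the start, and the capitals mark the matches.

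HSPA1A: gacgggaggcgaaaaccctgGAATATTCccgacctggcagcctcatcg

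HSPA1B: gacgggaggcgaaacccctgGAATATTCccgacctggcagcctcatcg

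HSPA6: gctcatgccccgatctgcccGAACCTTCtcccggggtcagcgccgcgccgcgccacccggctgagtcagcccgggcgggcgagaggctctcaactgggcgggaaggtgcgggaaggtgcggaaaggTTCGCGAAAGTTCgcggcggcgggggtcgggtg

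HSPA8: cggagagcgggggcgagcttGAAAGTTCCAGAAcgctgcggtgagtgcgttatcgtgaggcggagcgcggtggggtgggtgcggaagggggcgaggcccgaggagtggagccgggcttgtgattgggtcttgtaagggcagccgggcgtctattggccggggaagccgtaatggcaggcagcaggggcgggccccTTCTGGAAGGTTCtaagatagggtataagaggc

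HSPB1: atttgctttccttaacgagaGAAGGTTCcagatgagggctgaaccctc

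HSP90AA1: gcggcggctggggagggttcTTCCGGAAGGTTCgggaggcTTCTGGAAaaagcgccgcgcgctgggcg

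DNAJB1: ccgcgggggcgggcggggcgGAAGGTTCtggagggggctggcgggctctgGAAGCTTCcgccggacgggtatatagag

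These stretches lie at chr6:31815417-31815464 (HSPA1A), chr6:31827613-31827660 (HSPA1B), chr1:161524340-161524498 (HSPA6) and chr7:76302471-76302518 (HSPB1) on the plus strand, and at chr11:123062159-123062386 (HSPA8), chr14:102087085-102087152 (HSP90AA1) and chr19:14518417-14518494 (DNAJB1) on the minus strand. A perfect 3-unit element stood in 3 of the 10 genes and 3 of the 13 windows, beginning 74 bases before the start of HSPA6, 230 and 55 bases before that of HSPA8 and 88 bases before the downstream start of HSP90AA1. Of all 35116 RefSeq windows of this length, 0.49% hold one. Either 2-unit element stood in 7 of the 10 genes, or 8 of their 13 windows, and in 13.5% of all windows. The 8-letter element GAANNTTC begins 106 bases before the start of HSPA1A and 105 before that of HSPA1B, and their printed stretches are identical at 47 of 48 bases. DNAJB1 has GAANNTTC at 77 and 47 bases before its middle start. HSPH1, BAG3 and HSPE1 had none of these exact letters in the windows searched, and a looser spelling was not searched. The reticulum stress element, CCAAT and CCACG with 9 free bases between them, was in 0 of the 13 windows and in 0.0769% of all windows. The letters TATAAA were found before HSPA1A and HSPA1B, at 30 and 29 bases, and in 11.5% of all windows. The CCAAT box was found in 5 of the 10 genes, or 7 of the 13 windows, and in 34.6% of all windows.

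The values below are the deposited normalized read counts, of which 1 read was worth 0.0406 to 0.0693, and each library lists between 16912634 and 22161075 reads. Fold changes come from limma, which fits 1 linear model per gene across the table, on log2(value + 1), with p-values adjusted by the Benjamini-Hochberg method over 12263 genes and called at 0.05. Genes entered with 2 or more libraries at a value of 1 or above, and all 10 heat shock genes were among them, HSPA6 through its deprived libraries alone. The knocked-down gene itself, YAP1 (ENSG00000137693), had values of 20.3 (shYAP1) and 18.2 (shYAP3) against 154 (NC) after deprivation, and of 35.7 (shYAP1) and 38.2 (shYAP3) against 188 (NC) in control medium. Of 8 markers of colorectal epithelium 7 are in the table, and together they took 0.455% to 0.614% of listed reads after deprivation and 0.391% to 0.515% in control medium, while markers of fibroblasts, leukocytes and endothelium took at most 0.00343% of the reads of a library. In bulk RNA fewer expressing cells and less RNA per cell cannot be told apart. The deprived shYAP3 library stood apart in its dependence on transcript length. There the median difference to the mean of each gene was 0.44 (log2) over the shortest 10% of transcripts and −0.29 over the longest 10%. Over the shortest 10% it was 0.143 (shYAP1) and −0.0749 (NC) after deprivation. In control medium it was −0.147 (shYAP1), −0.185 (shYAP3) and −0.181 (NC). Short transcripts thus stood higher after deprivation in each line, most in shYAP3, so length goes along with the medium.

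After glucose deprivation 7 of the 10 genes rose and 0 fell, against 16.5% of all genes tested that rose and 15.6% that fell. On the scale of listed totals 5 of the 10 were higher and 0 lower, while of all 12263 genes 749 were higher and 3802 lower. DNAJB1, HSPA6, HSPA1B, HSPA1A and HSPB1 rose at least 2-fold, and HSP90AA1 and BAG3 rose less. HSPH1, HSPA8 and HSPE1 did not pass. A call with a fold of at least 2 was made for 5 of the 10 as higher and 0 as lower, against 2.67% and 2.46% of all genes, and an unadjusted p below 0.05 was found for 8 of the 10, against 45.4% of all genes. The median log2 fold change of the 10 genes was 0.92, against 0.05 for all genes. HSPA6 entered the test only because its deprived values are high, so it had to differ. Without it 6 of 9 genes rose, 4 of them at least 2-fold, and the median was 0.76. In 8 of the 10 genes all 3 deprived libraries lay above all 3 control libraries, as they did in 26.8% of all genes tested. HSPA6 is among these 8, and so is HSPA1A, whose reads cannot be told apart from those of HSPA1B with certainty. BAG3 and HSPE1 were the 2 genes in which the media overlapped.

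**Figure D1:**
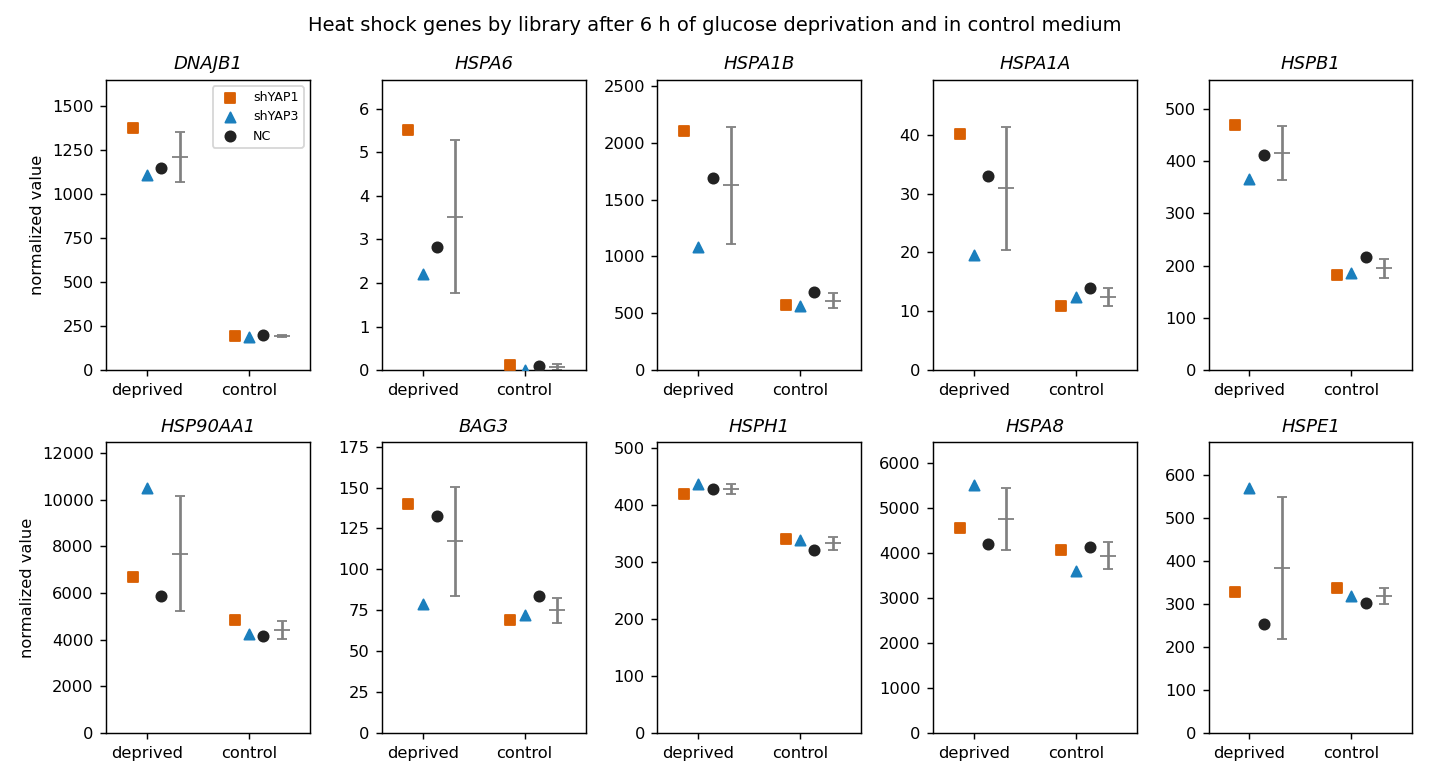
Normalized value of each of the 10 heat shock genes (vertical axis, from 0, own scale per gene) in the deprived and control libraries of shYAP1, shYAP3 and NC cells, with grey bars for mean ± SD of the 3 libraries of a medium. Genes run in falling order of the fitted change; BAG3 and HSPE1 are the 2 genes in which the media overlap.

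DNAJB1 (ENSG00000132002) encodes HSP40, the J-domain partner that delivers unfolded proteins to HSP70. It stood at 1377 in shYAP1, 1111 in shYAP3 and 1149.6 in NC cells after deprivation, against 193 in shYAP1, 189 in shYAP3 and 202 in NC cells in control medium. The deprived libraries were thus 7.15-fold (shYAP1), 5.88-fold (shYAP3) and 5.68-fold (NC) above the control library of the same line. The mean was 1212 ± 143 after deprivation and 195 ± 6.86 in control medium (SD, n = 3 libraries each), a log2 fold change of 2.63 (limma, SE 0.15, adjusted p = 2.1e-05). Of all genes tested it had the 24th largest rise. It passed without each library in turn, at a highest limma adjusted p of 0.0027.

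The HSP70 family of the cytosol holds inducible and constitutive members. Of the inducible ones HSPA1B and HSPA6 rose, HSPA6 in a test that it entered through its deprived libraries alone. HSPA1A rose too but is no separate measurement from HSPA1B. HSPA6 (ENSG00000173110) encodes HSP70B′, a strictly stress-inducible form that is close to silent in unstressed cells. It had 95 reads in shYAP1, 32 in shYAP3 and 53 in NC cells after deprivation, against 3 in shYAP1, 0 in shYAP3 and 2 in NC cells in control medium. As values these are 5.52, 2.22 and 2.82 after deprivation, against 0.122, 0 and 0.0880 in control medium, in the same order of lines. The control libraries lie at or below the 3 reads that a count of 0 allows, which covers counting error alone. HSPA6 had a log2 fold change of 2.01 (limma, SE 0.25, adjusted p = 0.0014) on log2(value + 1), which understates so low a gene. Its entry through the deprived libraries makes this p no independent support, and with no filter on low genes the limma adjusted p was 0.0046. On the recovered whole reads the log2 fold change was 5.47 (edgeR adjusted p = 0.0011), a size that depends on the prior count because the control libraries hold so few reads.

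HSPA1A (ENSG00000204389) and HSPA1B (ENSG00000204388) encode the major inducible HSP70, and their reads cannot be told apart with certainty. Of the 100-base windows of the longest HSPA1A transcript in GENCODE, 69.9% occur letter for letter in that of HSPA1B, and 0 of them occur in HSPA8 or HSPA6. HSPA1B stood at 2106 in shYAP1, 1079 in shYAP3 and 1688 in NC cells after deprivation, against 578 in shYAP1, 568 in shYAP3 and 687 in NC cells in control medium. HSPA1A stood at 40.2, 19.5 and 32.9 after deprivation, against 10.9, 12.4 and 14.0 in control medium, in the same order of lines. HSPA1A took 1.78% to 1.91% of the reads of the pair after deprivation and 1.85% to 2.13% in control medium. The 95% Wilson intervals of these shares ran from 1.58% to 2.07% over the deprived libraries and from 1.65% to 2.40% over the control libraries. Within each line the intervals of both media overlapped, and HSPA1A is not a second measurement of the rise. Its log2 fold change was 1.20 (SE 0.23, limma adjusted p = 0.0074) and that of HSPA1B 1.36 (SE 0.23, limma adjusted p = 0.0043). Summed, the pair averaged 1655 ± 527 after deprivation and 623 ± 67.3 in control medium (SD, n = 3 libraries each), with the same log2 fold change of 1.36 (limma adjusted p = 0.0044). HSPA1A did not pass without the NC control library or the NC deprived library (limma adjusted p = 0.054 for both), fits that rest on the shYAP response alone.

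HSPA8 (ENSG00000109971) encodes HSC70, the constitutive HSP70 that also drives clathrin uncoating and chaperone-mediated autophagy. It stood at 4549.8 in shYAP1, 5514 in shYAP3 and 4194 in NC cells after deprivation, against 4070.2 in shYAP1, 3587 in shYAP3 and 4138 in NC cells in control medium. The deprived libraries all lay above the control ones, but the NC pair differed by a ratio of 1.01 and the shYAP3 pair by 1.54. Its log2 fold change was 0.27 (SE 0.18, limma adjusted p = 0.29), with a 95% interval from −0.15 to 0.68, and it was −0.24 with quantile normalization and −0.04 when each library was scaled to its listed total. HSPA8, with its 2 perfect 3-unit elements in the stretch printed above, is thus among the genes that did not pass.

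The scaling matters for the abundant genes. Scaling to listed totals moved the median of all genes to −0.24, and on that scale the log2 fold changes of DNAJB1, HSPA6, HSPA1B, HSPA1A and HSPB1 were 2.32, 1.90, 1.05, 0.91 and 0.78, each past the threshold (limma adjusted p of at most 0.0196). With quantile normalization HSPA1B had a log2 fold change of 0.91 and passed. The 10 genes together took 1.51% of listed reads in shYAP1, 1.68% in shYAP3 and 1.39% in NC cells after deprivation, against 1.18% in shYAP1, 1.13% in shYAP3 and 1.14% in NC cells in control medium. All 3 deprived libraries lay above all 3 control libraries in this share, and HSPA8 and HSP90AA1 supply most of its level. The share of HSPA8 alone was lower after deprivation in shYAP1 (log2 −0.085) and NC cells (−0.18) and higher in shYAP3 (0.14). That of HSP90AA1 was higher in shYAP1 (0.22), shYAP3 (0.83) and NC cells (0.29).

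HSP110 proteins are relatives of HSP70 that exchange its nucleotide. HSPH1 (ENSG00000120694), which encodes HSP105, stood at 419.9 in shYAP1, 438 in shYAP3 and 429 in NC cells after deprivation, against 340.4 in shYAP1, 338 in shYAP3 and 320.4 in NC cells in control medium. The media were separate and the lines close together in each. The log2 fold change was 0.36 (SE 0.13, limma adjusted p = 0.056), which misses the threshold. HSPH1 passed without the shYAP3 deprived library (log2 0.36, limma adjusted p = 0.012), and on the scale of listed totals its log2 fold change was 0.06.

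HSP90AA1 (ENSG00000080824) encodes HSP90 alpha, the inducible isoform of the cytosolic HSP90. It stood at 6683 in shYAP1, 10501 in shYAP3 and 5864 in NC cells after deprivation, against 4854 in shYAP1, 4229.6 in shYAP3 and 4166 in NC cells in control medium. The shYAP3 deprived library was far above the other two. The mean was 7683 ± 2475 after deprivation and 4416 ± 380.2 in control medium (SD, n = 3 libraries each), a log2 fold change of 0.76 (limma, SE 0.22, adjusted p = 0.031). The call was lost without the NC control (adjusted p = 0.084), shYAP1 control (0.13), shYAP3 control (0.13) or NC deprived library (0.082), with quantile normalization (log2 0.31, adjusted p = 0.18), on the scale of listed totals (log2 0.45, adjusted p = 0.055) and with no filter on low genes (adjusted p = 0.094), all by limma.

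BAG3 (ENSG00000151929) encodes an HSP70 co-chaperone that exchanges nucleotide and routes clients to selective autophagy. It stood at 139.7 in shYAP1, 79.0 in shYAP3 and 133 in NC cells after deprivation, against 69.0 in shYAP1, 71.8 in shYAP3 and 83.8 in NC cells in control medium. The shYAP1 and NC lines were 2.02-fold and 1.58-fold higher after deprivation and shYAP3 1.10-fold, so that the media overlap. The log2 fold change was 0.60 (SE 0.20, limma adjusted p = 0.046). Without the shYAP3 deprived library it was 0.84 (limma adjusted p = 7.6e-05), and without the shYAP1 deprived library 0.38 (0.086). BAG3 did not pass without the NC control (0.17), shYAP1 control (0.15), shYAP3 control (0.14) or NC deprived library (0.17) either. It also did not pass with quantile normalization (0.097), on the scale of listed totals (log2 0.29, adjusted p = 0.32), with no filter (0.071) or with no trend (0.053), all by limma.

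HSPB1 (ENSG00000106211) encodes HSP27, a small heat shock protein that holds unfolded proteins without using ATP. It stood at 468 in shYAP1, 366 in shYAP3 and 411 in NC cells after deprivation, against 182 in shYAP1, 186 in shYAP3 and 216 in NC cells in control medium. The media were separate, and the deprived library was 2.57-fold (shYAP1), 1.97-fold (shYAP3) and 1.91-fold (NC) above the control library of its line. The mean was 415 ± 51.2 after deprivation and 194 ± 18.3 in control medium (SD, n = 3 libraries each), a log2 fold change of 1.09 (limma, SE 0.15, adjusted p = 0.0018). It passed without each library in turn, at a highest limma adjusted p of 0.026.

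HSPE1 (ENSG00000115541), the mitochondrial member, stood at 327 in shYAP1, 571 in shYAP3 and 254 in NC cells after deprivation, against 338 in shYAP1, 319 in shYAP3 and 302 in NC cells in control medium. It was higher after deprivation in shYAP3 and lower in shYAP1 and NC cells, and is the 1 gene of the 10 whose lines differ in direction. The log2 fold change was 0.18 (SE 0.22, limma adjusted p = 0.55), with a 95% interval from −0.32 to 0.68. It was −0.11 without the shYAP3 deprived library (limma adjusted p = 0.42), −0.18 with length and GC trends removed, −0.10 with quantile normalization and −0.13 on the scale of listed totals. Its longest annotated transcript has 950 bases and belongs to the shortest 10%, which stood high in the shYAP3 deprived library, and so does that of HSPB1 (1455 bases), which stood lowest there among the deprived libraries. The part of length in either value was not tested. HSPE1 shares its locus with the read-through gene HSPE1-MOB4, at 10.4, 9.01 and 6.39 after deprivation against 4.99, 6.45 and 5.59 in control medium in shYAP1, shYAP3 and NC cells, so reads could be split between them. Processed pseudogenes of HSPE1, HSPA8 and HSP90AA1 exist too, and can take up or lend reads.

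The lines did not order the genes alike. After deprivation shYAP1 was highest in 6 of the 10 genes, DNAJB1, HSPA6, HSPA1B, HSPA1A, HSPB1 and BAG3, and in the same 6 genes shYAP3 was lowest. In the other 4, HSPA8, HSP90AA1, HSPH1 and HSPE1, shYAP3 was highest. With 1 library per line and medium this split between lines has no test, and the shYAP3 deprived library is the one that stood apart by transcript length, whose part in the order was not tested. With length and GC trends removed, the fitted changes of HSPA1B (1.37), HSPA1A (1.20), BAG3 (0.61) and HSP90AA1 (0.68) passed.

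**Figure D2:**
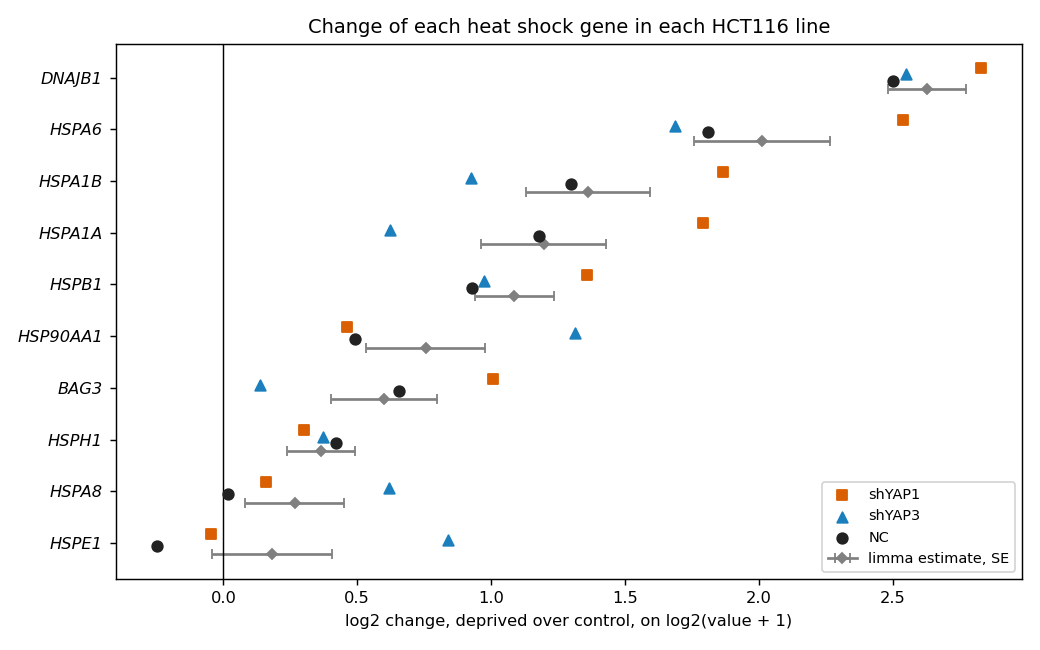
Difference of log2(value + 1) between deprived and control medium (horizontal axis) for each gene in shYAP1, shYAP3 and NC cells, with the limma estimate over all libraries and its SE in grey. The shYAP3 points lie lowest for HSPA6, HSPA1B, HSPA1A and BAG3 and highest for HSP90AA1, HSPA8 and HSPE1.

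NC cells alone gave 1 library in each medium, which allows no test. DNAJB1 (log2 difference 2.50), HSPA6 (1.81), HSPA1B (1.30) and HSPA1A (1.18) were at least 2-fold higher on log2(value + 1), 4 of the 10 genes, as were 2.87% of all genes, and 0 of the 10 were at least 2-fold lower, as were 2.04% of all genes. Of the 4 that were higher, HSPA6 entered through its deprived libraries alone, and HSPA1A is no separate measurement from HSPA1B. HSPB1 differed by 0.93, BAG3 by 0.66, HSP90AA1 by 0.49, HSPH1 by 0.42, HSPA8 by 0.02 and HSPE1 by −0.25.

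Levels can be compared between genes per kilobase of the longest annotated transcript, which need not be the one expressed. In control medium the order was HSPA8 (1596 per kb), HSP90AA1 (1258), HSPE1 (336), HSPA1B (242), HSPB1 (134), DNAJB1 (86.0), HSPH1 (64.1), BAG3 (29.1), HSPA1A (5.0) and HSPA6 (0.0295), and no 2 neighbours overlapped over the 3 libraries. After deprivation HSP90AA1 (2189 per kb) and HSPA8 (1929.5) led with overlapping ranges. HSPA1B (644), DNAJB1 (536), HSPE1 (404) and HSPB1 (285) followed, each overlapping the next, and then HSPH1 (82.6), BAG3 (45.5), HSPA1A (12.4) and HSPA6 (1.48), with no overlap. DNAJB1 thus stood 6th of 10 in control medium and 4th after deprivation, and HSPA6 last in both. The separate places of HSPA1A and HSPA1B rest on how reads of their shared sequence were divided, which is not given.

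The wider chaperone network was described over lists chosen with earlier results of these data known. Its counts are to be read against the 16.5% of all genes that rose, the 15.6% that fell and the median of 0.05, and a share near these is no result about a list. Of 8 cytosolic HSP70 genes tested, 3 rose and 3 fell. The 3 that rose were HSPA6, HSPA1B and HSPA1A, of which the last is no separate measurement. The 3 that fell are no classical heat shock genes: HSPA2, a testis-enriched HSP70, stood at 1.63, 1.52 and 1.49 after deprivation in shYAP1, shYAP3 and NC cells, against 2.96, 4.0 and 2.90 in control medium (log2 −0.74, limma adjusted p = 0.011). HSPA12A (log2 −0.67, adjusted p = 0.043) and HSPA12B (−0.60, 0.022), distant relatives of HSP70, fell as well by limma. All 3 failed without the NC control, shYAP3 control or NC deprived library, and HSPA12A and HSPA12B also without the shYAP1 control library, at a highest limma adjusted p of 0.074 (HSPA2), 0.18 (HSPA12A) and 0.10 (HSPA12B). HSPA12B also failed with quantile normalization (0.058) and with length and GC trends removed (0.051), and HSPA12A with no filter (0.074). HSPA12B entered the test through its control libraries alone, at 1.30 in shYAP1, 1.05 in shYAP3 and 1.10 in NC cells. After deprivation it stood at 0.465, 0.416 and 0.372 in the same order of lines, so it had to differ. Its p is thus no independent support. Of 3 HSP110 genes 0 rose, and HSPA4 (log2 0.19, limma adjusted p = 0.37) and HSPA4L (0.05, 0.81) did not pass. Both had negative values with quantile normalization (−0.09 and −0.01) and on the scale of listed totals (−0.11 and −0.26).

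Of 14 J-domain proteins of the cytosol and nucleus 4 rose and 1 fell, against 16.5% and 15.6% of all genes, with a median log2 fold change of 0.30. After DNAJB1, the largest rise was that of its relative DNAJB4, at 57.2 in shYAP1, 76.6 in shYAP3 and 35.1 in NC cells after deprivation, against 32.2, 25.8 and 18.3 in control medium (log2 1.08, limma adjusted p = 0.0029), a rise of 0.44 with length and GC trends removed. DNAJC2, which acts at the ribosome, rose (0.64, adjusted p = 0.021), and so did DNAJA2 (0.51, 0.045), named after its value was seen. DNAJC5, the cysteine string protein of secretory vesicles, fell (−0.62, 0.0085, and −0.33 with length and GC trends removed). DNAJC2 and DNAJC5 each failed without the NC control, shYAP1 control, shYAP3 control and NC deprived libraries, at a highest limma adjusted p of 0.11 and 0.069, and DNAJC2 failed on the scale of listed totals (log2 0.33, adjusted p = 0.12). Of 9 BAG and other HSP70 adaptor genes 2 rose, near the 16.5% of all genes. They were BAG3 and ST13, the HSP70-interacting protein Hip (0.46, 0.030). ST13 did not pass with quantile normalization (log2 0.15, limma adjusted p = 0.30), on the scale of listed totals (0.15, 0.37), with length and GC trends removed (0.25, 0.080) or without the NC control, shYAP1 control, shYAP3 control or NC deprived library (highest limma adjusted p = 0.18). BAG5 (−0.27) and BAG6 (0.31) did not pass (limma adjusted p = 0.14 and 0.19). With length and GC trends removed both passed, at −0.33 and 0.48, and BAG6 also without the shYAP3 deprived library.

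Of 16 genes of HSP90 and its co-chaperones 1 rose, HSP90AA1, and 0 fell, with a median of −0.01. An unadjusted p below 0.05 was found for 6 of the 16, against 45.4% of all genes, and the values lay on both sides of 0. HSP90AB1, the constitutive HSP90 beta, stood at 5619.7 in shYAP1, 6644 in shYAP3 and 5058 in NC cells after deprivation, against 4031, 3824 and 4119 in control medium. It missed the threshold (log2 0.52, limma adjusted p = 0.053), which it passed with DESeq2 (0.0092), with a pseudocount of 0.1 and with no trend. STIP1 (0.08, limma adjusted p = 0.67), which links HSP70 to HSP90, and AHSA1 (−0.08, 0.63), which speeds the ATPase of HSP90, did not pass, nor did FKBP4 (−0.36, 0.075) and UNC45A (−0.32, 0.082). STIP1 was −0.26 with quantile normalization and −0.22 on the scale of listed totals. On that scale AHSA1 (−0.39), FKBP4 (−0.66) and UNC45A (−0.63) passed as lower. Of 3 genes tested from the list named small heat shock proteins, HSPB1 alone rose. HSPB11 (0.56, 0.077) and HSPB8 (0.11, 0.64, and −0.13 on the scale of listed totals) did not pass in limma. HSPB11 passed without the shYAP1 deprived library (0.034) and with the construct as a replicate block (0.037).

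The chaperonin TRiC and prefoldin, which act in the folding of actin and tubulin, had 6 of 15 genes higher and 0 lower, with a median of 0.39. Of the TRiC genes CCT8 alone passed (log2 0.64, limma adjusted p = 0.024). The others that passed were the prefoldin genes PFDN1, PFDN2, PFDN4, PFDN5 and VBP1. CCT8, PFDN1 and VBP1 were named after their values were seen. Prefoldin subunits led, with PFDN2 (log2 1.10, limma adjusted p = 0.0037), PFDN4 (1.06, 0.017) and PFDN5 (0.88, 0.023) higher. PFDN5 stood at 215 in shYAP1, 392.3 in shYAP3 and 159 in NC cells after deprivation, against 137, 127 and 121 in control medium, so that the shYAP3 deprived library was the highest. PFDN4 did not pass with length and GC trends removed (log2 0.25, limma adjusted p = 0.15), and PFDN4 and PFDN5 did not pass without the shYAP1 control library (0.081 and 0.093) or the shYAP3 control library (0.072 and 0.105). PFDN5 had a log2 fold change of 0.58 on the scale of listed totals.

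In mitochondria 1 of 13 chaperone and protease genes rose. It was GRPEL2 (log2 0.82, limma adjusted p = 0.0050), a nucleotide exchange factor of the mitochondrial HSP70, with 0.52 on the scale of listed totals. HSPD1, which encodes the HSP60 partner of HSPE1 and shares its promoter region, did not pass (0.39, 0.11, and −0.19 with quantile normalization), nor did HSPA9, the mitochondrial HSP70 (0.36, 0.081, and −0.04 with quantile normalization). HSPA9 passed without the shYAP3 deprived library (limma adjusted p = 0.0098) and with length and GC trends removed (0.044). HSPE1 and HSPD1 both stood highest in the deprived shYAP3 library, HSPD1 at 2029 in shYAP1, 2641 in shYAP3 and 1873 in NC cells after deprivation, against 1766, 1587 and 1594 in control medium.

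The heat shock factors themselves did not pass. HSF1 stood at 86.5 in shYAP1, 61.0 in shYAP3 and 84.9 in NC cells after deprivation, against 64.0, 64.5 and 72.5 in control medium (log2 0.19, limma adjusted p = 0.36). It was 0.34 and passed without the shYAP3 deprived library (0.014) and with length and GC trends removed (0.017), and was −0.11 on the scale of listed totals. HSF2 (0.46, limma adjusted p = 0.060) and HSBP1 (0.53, 0.071), which encodes a protein that binds HSF1, did not pass; they passed without the shYAP1 deprived library (0.013 and 0.034) or the shYAP3 deprived library (0.0399 and 0.044). With the construct as a replicate block HSF2 passed (0.042). HSBP1 passed in 2 of the 10 alternative settings that kept all libraries. HSF1 is controlled mainly through its protein, which mRNA does not show.

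Of 12 further genes described as HSF1 targets 9 rose and 0 fell, with a median log2 fold change of 0.72. ZFAND2A, the arsenite-inducible regulator of the proteasome also called AIRAP, stood at 50.5 in shYAP1, 55.0 in shYAP3 and 37.7 in NC cells after deprivation, against 9.98, 10.3 and 10.6 in control medium (log2 2.09, limma adjusted p = 0.00011). RGS2, which restrains G protein signalling (2.08, 0.00024), rose too, and both passed without each library in turn. MRPL18 (0.07), HMOX1 (−0.29) and JMJD6 (−0.13) did not pass and were named after their values were seen. For contrast, 15 of 16 chaperones of the endoplasmic reticulum rose, with a median of 1.28, DNAJB9 (2.67), HSPA5 (2.65) and DNAJC3 (1.69) among them.

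**Figure D3:**
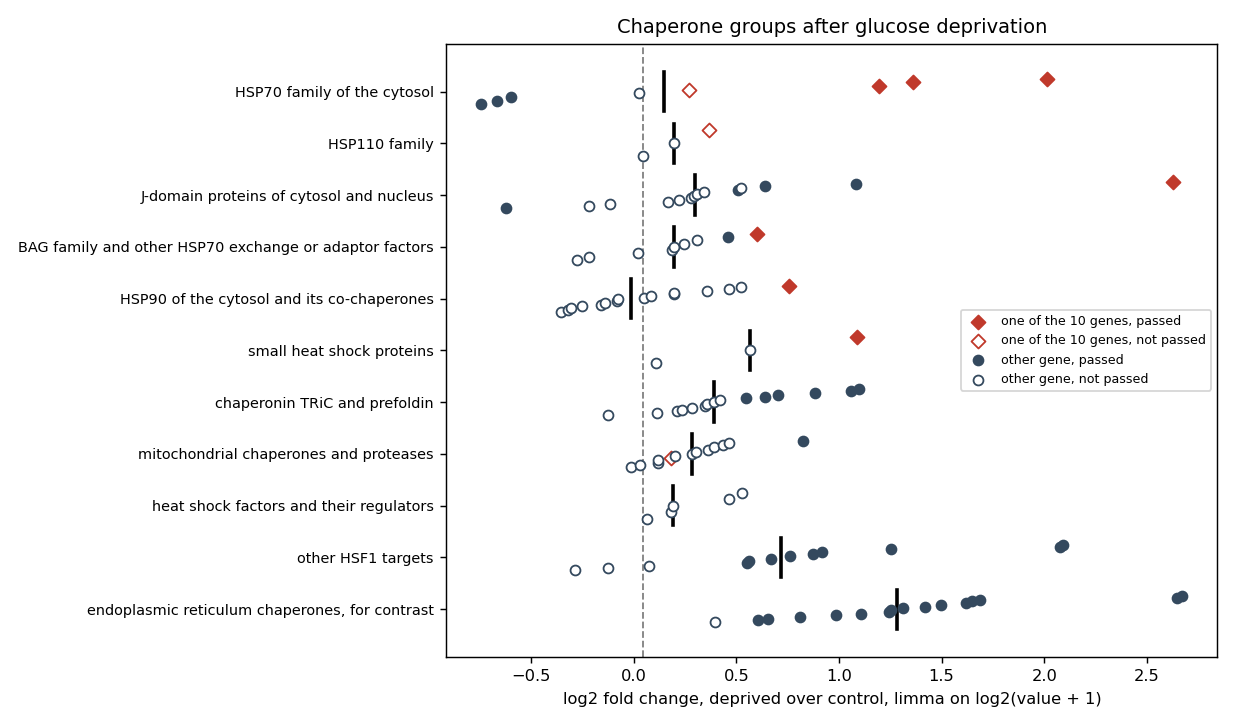
Fitted log2 fold change (horizontal axis) of each tested gene of 11 chaperone groups, with diamonds for the 10 heat shock genes, filled symbols for genes past the threshold and a black bar for the median of a group. The dashed line is the median of all genes, 0.05; the HSP90 group is centred near it and the reticulum group at 1.28.

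YAP knockdown did not move the 10 genes past the spread between libraries. Over both media 0 of 10 passed in limma, and 0 had an unadjusted p below 0.05, against 7.32% of all genes. Of all 12263 genes 0.00815% passed, which is YAP1 itself. All 4 shYAP libraries lay above both NC libraries in 1 of the 10 genes, HSPE1, as in 4.83% of all genes. They lay below both in 0 of the 10, as in 6.04% of all genes. The count pools both media, so the 8 genes whose media were separate could meet neither condition. For those 8 it gives no result about the knockdown. DNAJB1 had a log2 difference of 0.01 between shYAP and NC cells (95% interval −0.34 to 0.36), HSPH1 0.04 (−0.27 to 0.35) and HSPA8 0.07 (−0.37 to 0.51). HSPE1 had the highest value, 0.44 (−0.09 to 0.98), and BAG3 the lowest, −0.29 (−0.76 to 0.18). For HSPA1B it was −0.21 (−0.76 to 0.34). These intervals are not adjusted, while a call is adjusted over 12263 genes. The bounds are thus no limit of detection, and differences beyond them could also have gone uncalled. edgeR and DESeq2 also called 0 of the 10. In the 11 chaperone lists 0 genes passed for the knockdown, or for the difference of the response described next.

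The difference of the response between shYAP and NC cells was tested in a model with 1 mean for each genotype and medium. By limma 0 of 10 genes passed and 0% of all genes did, 0 of 10 had an unadjusted p below 0.05 and 0.905% of all genes did, and edgeR and DESeq2 called 0 of the 10. The log2 difference was 0.19 for DNAJB1 (95% interval −0.59 to 0.97), 0.10 for HSPA1B (−1.19 to 1.39), 0.24 for HSPB1 (−0.55 to 1.02) and 0.64 for HSPE1 (−0.47 to 1.76). NC cells have 1 library per medium and are assumed to vary as shYAP cells do. The SE for HSPA1B was 0.55 with all libraries, 0.27 without the shYAP1 deprived library and 0.28 without the shYAP3 deprived library. Without either library the spread is that between the shYAP control libraries, and no spread after deprivation enters the SE. Without the shYAP1 deprived library, shYAP3 is the single shYAP library after deprivation. The log2 difference was then 1.05 for HSPE1 and −0.49 for BAG3, and calls from such a fit are no result about the genes.

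**Figure D4:**
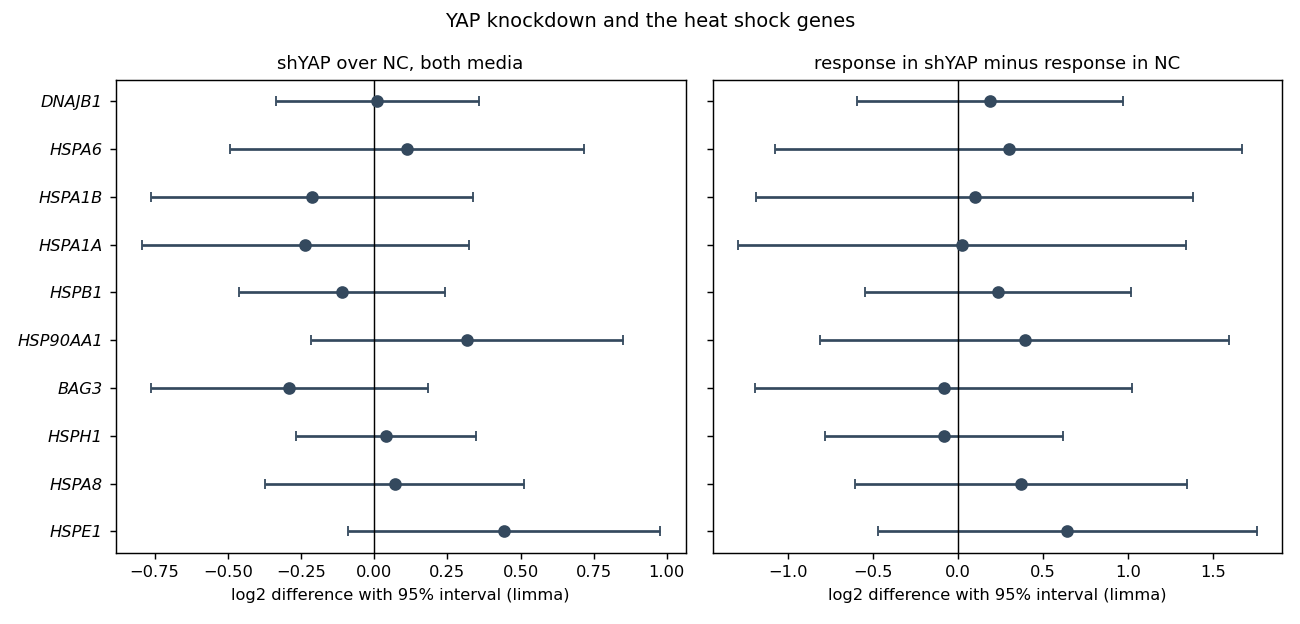
Log2 difference (horizontal axes) with its 95% interval from limma for each gene, for shYAP over NC cells over both media (left) and for the response in shYAP minus that in NC cells (right). Every interval includes 0 in both panels.

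The genes nearest to each heat shock gene over the 6 libraries were found by the Euclidean distance between log2(value + 1) profiles centred on their means. The closest to DNAJB1 were PPP1R15A (0.35), CSRNP1 (0.46) and HSPA5 (0.48). The closest to HSPA1B were UBALD1 (0.22), its copy HSPA1A (0.25) and DUSP4 (0.28), and those closest to HSPA6 were EGR4 (0.41), JUNB (0.44) and OVOL1 (0.49). BAG3 had TRIB1 (0.14) as its nearest gene, HSPB1 had CCDC9 (0.15), HSPH1 had GNG12 (0.068) and HSPA8 had ADSL (0.085). HSPE1 was nearest to MRPS23 (0.15), MRPL51 (0.15) and COX16 (0.16), which encode mitochondrial proteins, and HSP90AA1 to SEP15 (0.074). After deprivation HSPE1 stood at 571 in shYAP3, against 327 in shYAP1 and 254 in NC cells. The shYAP3 deprived library is the one that stood apart by transcript length, and the longest HSPE1 transcript has only 950 bases. Whether length or a shared mitochondrial role lies behind the genes nearest to HSPE1 was not tested.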

How the data were processed

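The deposited signal is 1 normalized value per gene and library. Bowtie2, BWA and the build hg19 are listed, per the submitters' processing notes, without roles or versions. How reads were counted, by which strand and with what scaling is not given in the sources used here. The mRNA, per the labels' protocols, was captured with oligo-dT and sequenced on Illumina instruments. Division by the value of 1 read recovered whole reads for 100% of values, within 0.01 of a read, and gave 16912634 to 22161075 reads a library. A gene with a count of 0 may still stand for 3 reads, and floors and intervals cover counting error only.

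For each gene log2(value + 1) was fitted in limma 3.58.1 under R 4.3.3, with the trend of variance on mean, where 2 libraries or more were at or above 1. The response and the knockdown came from an additive model of genotype and medium. Alternatives were edgeR 4.0.16 and DESeq2 1.42.0 on recovered reads (3848 and 4140 genes called in the response, against 3936), other scalings, filters and pseudocounts, removed trends of length and GC content (from GENCODE v29, 98.0% of genes), the pair HSPA1A and HSPA1B summed, each library left out, and the construct as a block. Libraries were paired across media by the construct their labels name. The shYAP1 minus shYAP3 differences in the 2 media had a correlation of 0.102 across 12263 genes.

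The members and lists were chosen with earlier results of these data known. Named genes are all 10 members, 10 further genes set by name, HSF1 and YAP1 among them, and the 3 others of each list with the smallest p in the response. Of these, 1 gene is not reported here. Sequences are RefSeq's, GRCh38.p14, another build than hg19.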

Additional observations from a re-analysis of the deposited data

How the results depend on the processing

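Of 10 heat shock genes, 7 passed in the response, all higher, and 0 lower. The count was 5 with quantile normalization, on the scale of listed totals and with no filter, 6 with no trend, 6 of 9 with HSPA1A and HSPA1B summed, and 7 in the other settings, and without 1 library it was 4 to 8, all higher, with 0 lower in each. With the construct as a replicate block it was 7, and 4453 genes passed in all; the block changed no call among the 10 and added HSF2 and HSPB11 among the other named genes. Of all genes 3936 passed, and 1086 to 5306 without 1 library. DNAJB1, HSPA1B and HSPB1 passed in every setting run. HSPA6 did too and is included in each response count of the 10 genes above. Wherever the filter was used it entered through its deprived libraries alone, so those calls are no independent support. For the knockdown the count was 0 in each setting, with 1 gene called in all, 7 with DESeq2 and 0 to 5 without 1 library. For the difference of the response it was 0 in each full setting and 0 to 2 without 1 library (0 to 1 higher and 0 to 1 lower), with 0 genes called in all, 1 with DESeq2 and 0 to 2735 without 1 library. Each fit of the difference without 1 library left a single shYAP library in a medium, so its spread came from the other medium alone. In NC cells 4 genes were at least 2-fold higher, and 3 with quantile normalization or on the scale of listed totals.

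Genes that did not pass changed sign as follows; the cause was not tested. In the response, quantile normalization gave HSPA8 −0.24, HSPE1 −0.10, HSPA4 −0.086, HSPA4L −0.014, HSPA9 −0.036, HSPD1 −0.19 and STIP1 −0.26. Listed totals gave HSPA8 −0.042, HSPE1 −0.13, HSPA4 −0.11, HSPA4L −0.26, HSPB8 −0.13, HSF1 −0.11 and STIP1 −0.22, and removed length and GC trends HSPE1 −0.18. Without 1 library HSPE1 ran from −0.11 to 0.40 and HSPA4L from −0.020 to 0.11.

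For the knockdown, quantile normalization gave HSPA8 −0.028 and DNAJB1 −0.15, listed totals HSPH1 −0.014 and DNAJB1 −0.043, a pseudocount of 0.1 HSPA6 −0.015, and removed length and GC trends HSPH1 −0.044. Without 1 library the values ran from −0.23 to 0.0091 for HSPB1, from −0.0010 to 0.082 for HSPH1, from −0.13 to 0.31 for HSPA6, from −0.12 to 0.26 for HSPA8 and from −0.084 to 0.11 for DNAJB1. For the difference of the response, quantile normalization gave HSPA1B −0.14, HSPA8 −0.029 and DNAJB1 −0.17, listed totals HSPA1A −0.12 and HSPA1B −0.063, and removed trends HSPA1A −0.083, HSPA1B −0.0038 and HSPB1 −0.047. Without 1 library it ran from −0.48 to 0.53 for HSPA1A, from −0.38 to 0.58 for HSPA1B, from −0.21 to 0.81 for HSPA6 and from −0.49 to 0.32 for BAG3. It could not be fitted without an NC library, and the block was fitted for the response alone.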
